A study of Mus musculus with 6 samples.

Results

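Coagulation turns soluble blood proteins into a fibrin clot, and fibrinolysis takes the clot apart again. The 10 genes described here, F3, F7, F10, F5, F13a1, F2r, Thbd, Tfpi, Plau and Plaur, were found by gene name among the 55401 genes of the deposited table, and all 10 were present. F13a1 was put in the set because it was abundant and F7 because it was higher in one group, so the level of the first and the group difference of the second are descriptions and carry no test. The other 8 were taken for their function.

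The values are reads per gene from total RNA of bone marrow cells of 6 mice, each carrying a secondary transplant of a leukaemia named for the homeobox genes Hoxa9 and Meis1. In 3 mice the cells transplanted and later collected were lymphoid leukaemic stem cells (Lym+), here Lym, and in 3 mice they were progenitors of the Lin-cKit+ kind, here Lin-. Sets of 3 values follow the order of mouse 62, mouse 63, mouse 87 for Lym and mouse 56, mouse 57, mouse 91 for Lin-. All 6 share the Hoxa9 and Meis1 leukaemia. The labels give no strain, age, vector or donor leukaemia, so the tests treat each mouse as independent. Each mouse gave 1 library, and the libraries held 18537700 to 22634286 reads assigned to genes. A normalized count below is a read count divided by a size factor of its library, as the authors deposited it, and 3 reads, used as a floor, equal 2.64 to 3.36 normalized counts. On the first principal component of the 500 most variable genes, which holds 61.8% of their variance, Lym scored -52.5, -32.9 and 26.4 and Lin- 18.7, 3.86 and 36.4. Lym mouse 87 thus lies among the Lin- libraries, and where it decides a value that value is also given without it. The library of Lym mouse 62 had an RNA input of 1 ng, against 2 ng for the others.

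In clotting, tissue factor (F3) binds factor VII (F7), the complex activates factor X (F10), and factor X with its cofactor factor V (F5) makes thrombin. Thrombin forms fibrin, which factor XIII (F13a1 encodes its catalytic A subunit) crosslinks, and it signals to cells through the receptor F2r. Thrombomodulin (Thbd) and tissue factor pathway inhibitor (Tfpi) hold the cascade back, while urokinase (Plau) on its receptor (Plaur) starts the breakdown of fibrin. Liver makes most circulating clotting factors. Monocytes and macrophages are known to carry several of these genes, and factor XIII A is a known product of monocytes and of megakaryocytes.

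F7 and F10 lie head to tail on the plus strand of mouse chromosome 8 and were the members with every Lin- value above every Lym value. Their upstream windows are shown because the 2 genes are neighbours with groups apart in the same direction, for which F7 was chosen. That of F3 is shown because the gene was silent, and that of F13a1 because it was the most abundant member. The windows are the 250 bases before the annotated start, from RefSeq on GRCm38.p6, which holds 8 of the 10 members. They span chr8:13025784-13026033 for F7 (plus strand), chr8:13037058-13037307 for F10 (plus), chr3:121723287-121723536 for F3 (plus) and chr13:37050245-37050494 for F13a1 (minus). Capitals mark matches on either strand to 7 motifs. These were TGACAG for Meis factors, TGATTNAT for Hox with Pbx, TGANTCA for AP-1, GAGGAA for ETS factors such as PU.1, TTNCNNAA for C/EBP, AGGTCA for nuclear receptors and AGATAA for GATA factors.
F7: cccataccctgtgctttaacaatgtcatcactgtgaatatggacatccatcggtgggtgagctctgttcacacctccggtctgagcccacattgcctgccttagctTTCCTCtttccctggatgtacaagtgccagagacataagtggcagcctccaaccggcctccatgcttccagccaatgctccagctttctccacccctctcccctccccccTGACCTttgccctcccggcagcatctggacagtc
F10: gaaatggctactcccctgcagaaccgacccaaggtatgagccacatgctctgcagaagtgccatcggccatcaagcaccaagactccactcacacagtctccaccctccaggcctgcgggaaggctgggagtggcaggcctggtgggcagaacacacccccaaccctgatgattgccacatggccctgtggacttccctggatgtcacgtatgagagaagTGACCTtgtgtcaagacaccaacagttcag
F3: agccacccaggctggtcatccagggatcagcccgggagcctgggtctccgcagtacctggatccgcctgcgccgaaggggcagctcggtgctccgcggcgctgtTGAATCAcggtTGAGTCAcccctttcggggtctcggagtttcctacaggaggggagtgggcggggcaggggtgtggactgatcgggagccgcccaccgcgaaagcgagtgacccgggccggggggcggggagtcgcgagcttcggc
F13a1: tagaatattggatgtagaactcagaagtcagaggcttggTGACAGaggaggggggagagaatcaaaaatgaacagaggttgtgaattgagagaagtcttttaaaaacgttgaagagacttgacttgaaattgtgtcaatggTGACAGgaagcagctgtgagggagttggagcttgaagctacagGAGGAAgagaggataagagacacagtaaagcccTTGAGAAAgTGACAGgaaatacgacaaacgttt
F7 and F10 both held TGACCT, the reverse strand of AGGTCA, beginning at 34 and 30 bases before the start. It was also 57 bases before the start of F5. AGGTCA was in 14.0% of all 32851 upstream windows of this length. The F13a1 window held TGACAG at 3 places, a motif found at least once in 15.9% of windows, and the window of its other RefSeq start held none of the motifs. GAGGAA was in 23.3% of windows, TTNCNNAA in 36.8%, TGANTCA in 6.75%, TGATTNAT in 2.82% and AGATAA in 9.99%, and matches of different motifs may overlap. The F3 window had a GC content of 70.0% and 24 CpG sites against 56.4% and 4 in F7, with a median GC content of 52.4% over all windows. A match is a stretch of letters and was not tested for binding.

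Tissue factor and the thrombin receptor had next to no signal in these cells. F3, which encodes tissue factor, had 1 read in Lin- mouse 91 and none in the other 5 libraries. F2r, the main thrombin receptor, had 2 reads in the same library and none elsewhere. Both counts lie under the floor of 3 reads, so expression was not detectable at this depth in either group, and no fold change is given. These were the 2 members that did not pass the filter of 10 normalized counts in at least 3 libraries. The other 8 passed and were among the 14273 genes tested.

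Per kilobase of exon, F13a1 was by far the highest member. Its level per kilobase was 3699, 6794 and 5072 in Lym, against 7258, 6825 and 6200 in Lin-. Its mean of 5975 ranked 80 among the 14273 tested genes. F10 came next at 535 to 1714 normalized counts per kilobase, clear of the F13a1 range, and then F7 at 48.3 to 1274. Those ranges overlap, although F10 stood above F7 in each of the 6 libraries. Thbd followed at 177 to 259, inside the F7 range. Tfpi (21.3 to 175) and Plaur (83.1 to 141) had nearly equal means of 116.4 and 115 and overlap each other. Plau (8.53 to 50.3) and F5 (4.23 to 30.3) were lowest and overlap as well.

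**Figure D1:**
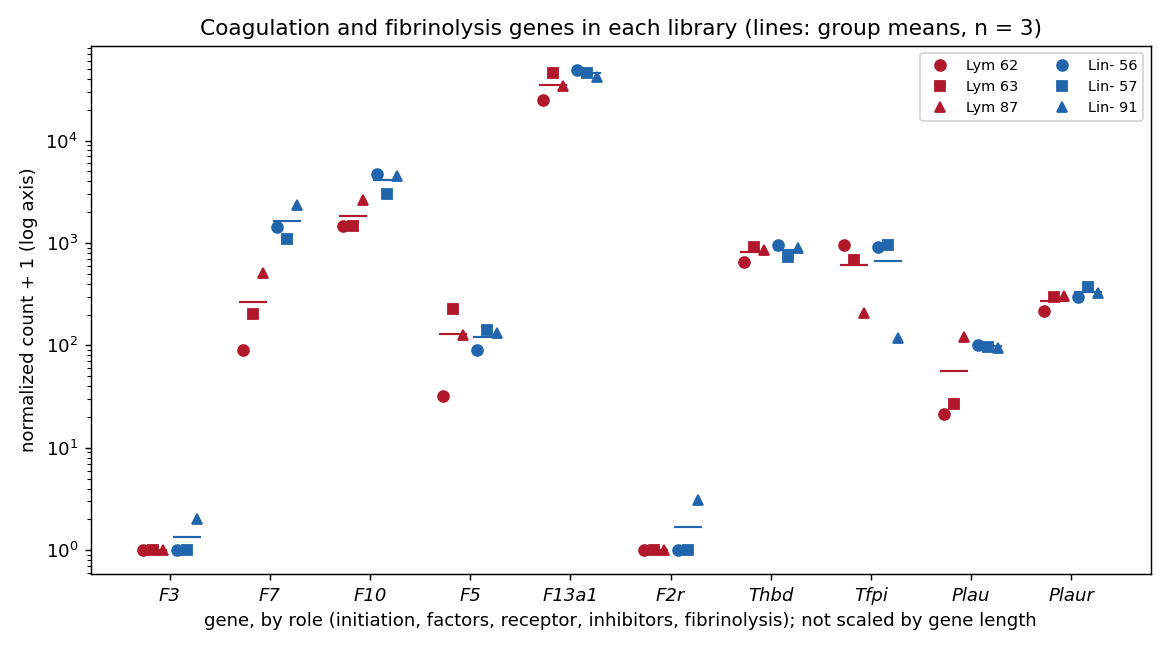
Normalized count plus 1 on a log axis for the 10 members in each library, with Lym libraries in red, Lin- libraries in blue and group means (n = 3) as lines. F3 and F2r sit at the bottom, F7 and F10 have all 3 Lin- points above all 3 Lym points, and Tfpi has its lowest points in Lym mouse 87 and Lin- mouse 91.

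F7, the protease that starts clotting with tissue factor (chromosome 8, 13026034 to 13035809 in GRCm38), was the member with the widest gap between the groups. It had 89.7, 200.3 and 511 normalized counts in Lym, against 1415, 1094 and 2368 in Lin-. The groups did not overlap, with mouse 62 lowest and mouse 91 highest. The means were 267 ± 218 in Lym and 1626 ± 663 in Lin- (SD, n = 3 each), a 6.09-fold ratio and a log2 difference (Lym minus Lin-) of -2.87. Without Lym mouse 87 it was -3.50, and without Lym mouse 62 it was -2.26. F7 was chosen for this difference, which therefore carries no test. The read counts behind it, 80 to 2296 per library, are far above the floor.

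F10, the protease at the meeting point of the clotting pathways (chromosome 8, 13037308 to 13056676), had 1469, 1461 and 2621 normalized counts in Lym, against 4681, 3014 and 4541 in Lin-. The groups did not overlap here either, and mouse 87 came closest to the Lin- values. The means were 1851 ± 667 and 4079 ± 925 (SD, n = 3 each), with a log2 difference of -1.17 ± 0.26 (SE), a 95% interval of -1.76 to -0.58, and a limma adjusted p = 0.420 (Benjamini-Hochberg over 14273 genes). In the authors' deposited table F10 is past the threshold of 0.05, with a log2 fold change of 0.96 ± 0.21 (SE, Lin- over Lym) and an adjusted p of 0.00376. DESeq2 run here also called it (log2 difference -1.14, adjusted p = 0.00180), and edgeR did not (adjusted p = 0.393). The deposited fold change was thus smaller in size than that of DESeq2 run here, and the cause was not tested. Over all alternatives tried the adjusted p of F10 ran from 0.00180 to 0.857. It was a limma call without Lym mouse 87 (log2 difference -1.45, adjusted p = 0.00377), where 9.57% of all genes were called and 25.9% had an unadjusted p under 0.05. Without Lym mouse 62 its log2 difference was -1.03 (limma adjusted p = 0.842).

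Without F7, 0 of the 7 tested members passed in limma, against a background of 0% of the 14273 genes tested. Of the 14273 genes, 1459 (10.2%) had an unadjusted limma p under 0.05, and 4.27% had it with the lower value in Lym. edgeR and limma-voom also called 0% of genes, with 1444 (10.1%) and 1362 (9.54%) at an unadjusted p under 0.05. DESeq2 on the recovered reads called 226 genes, or 1.39% of those given an adjusted p (0.246% lower in Lym, 10.3% at an unadjusted p under 0.05), and the authors' deposited table called 101 genes, or 0.32% (0.0633% lower in Lym). Groups that did not overlap were found in 15.6% of tested genes, 7.08% with Lin- above Lym and 8.49% with Lym above Lin-. Leaving out F7, 1 of the 7 tested members, F10, had groups apart and an unadjusted limma p under 0.05. That is 14.3% of the 7, and a single gene cannot be told apart from any of these shares of all genes, so no excess is read from it. The median log2 difference was -0.29 over these 7 and -0.01 over all genes tested.

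**Figure D2:**
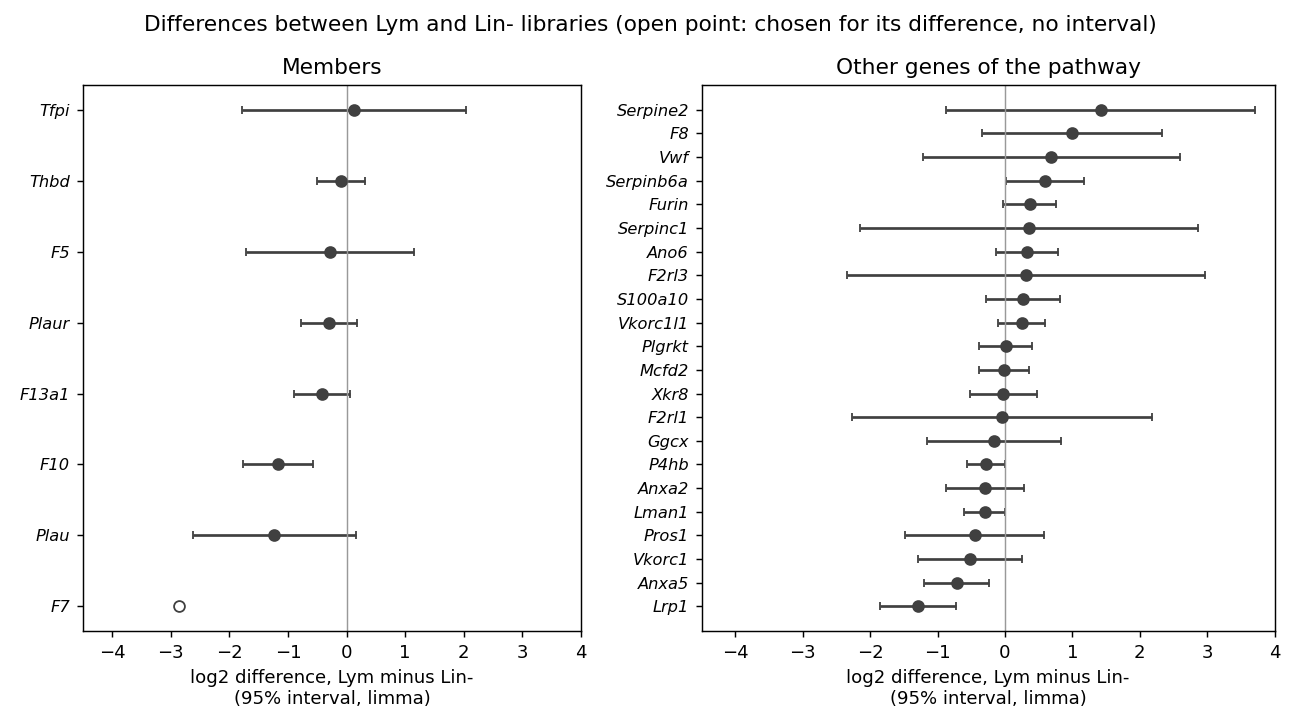
Log2 difference, Lym minus Lin-, with 95% intervals from limma for the 8 tested members (left) and for 22 other genes of the pathway (right). Among the members the interval of F10 lies wholly below 0, and F7 is an open point without interval because it was chosen for its difference.

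The level of F7 relative to F10 also differed between libraries. Per kilobase, F7 was 8.97%, 20.1% and 28.6% of F10 in Lym, against 44.4%, 53.3% and 76.6% in Lin-. The gap between the groups was thus wider for F7 than for F10, and the ratio, which rests on F7, is given without a test. The end of F7 and the start of F10 are 1498 bases apart, and the annotation lists no other gene overlapping either. Proz, a related gene of the cascade 4237 bases further on, was near the floor at 1.12 to 7.85 normalized counts.

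The groups were apart in F7, which was chosen for its difference, and in F10, but not in the other genes shown on either side. Mcf2l, a guanine nucleotide exchange factor gene that ends 5128 bases before F7, was at 2135 to 3415 with a log2 difference of -0.15 ± 0.18 (limma adjusted p = 0.781). Pcid2, the next gene after Proz, was at 827 to 1140 with a log2 difference of 0.00 ± 0.15 (adjusted p = 0.994, limma). Atp11a (928 to 1522) and Cul4a (1999 to 2601) had log2 differences of 0.28 ± 0.22 and 0.15 ± 0.13. The values of the 2 groups overlapped in each of these neighbours.

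**Figure D3:**
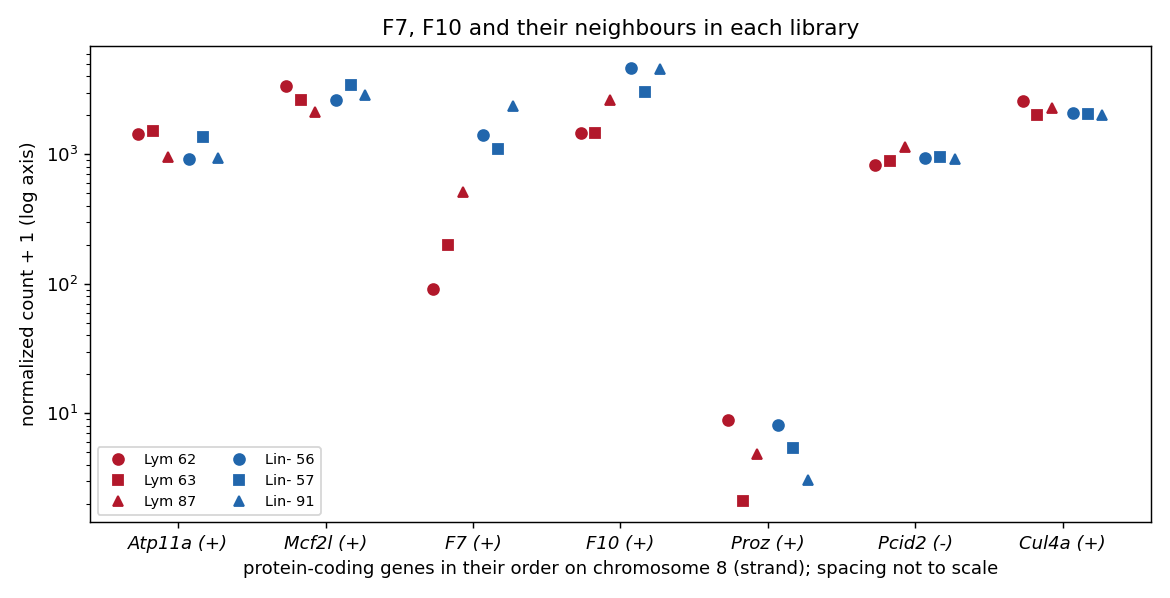
Normalized count plus 1 on a log axis for 7 protein-coding genes in their order on chromosome 8, with strand in brackets and spacing not to scale. Lym (red) and Lin- (blue) points are apart in F7 and F10 and overlap in the other 5 genes.

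Factor V and factor XIII A did not separate the groups. F5, the cofactor of factor X (chromosome 1, 164151838 to 164220277), had 31.4, 225 and 127 normalized counts in Lym, against 90.0, 139.9 and 132 in Lin-. The Lym values lie on both sides of the Lin- values, with mouse 62 low and mouse 63 high. The log2 difference was -0.28 ± 0.63 (limma adjusted p = 0.888, 95% interval -1.72 to 1.16), and it was 0.50 without Lym mouse 62. F5 overlaps unnamed gene models on both strands, and the counting strand is not given in the sources used here, so its reads are uncertain to that extent.

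F13a1, the transglutaminase subunit that crosslinks fibrin (chromosome 13, 36867178 to 37050244, minus strand), took 0.119% to 0.247% of all reads of a library. It had 24928, 45787 and 34183 normalized counts in Lym, against 48910, 45993 and 41783 in Lin-. Mice 62 and 87 lay below the Lin- range and mouse 63 inside it. The log2 difference was -0.42 ± 0.21 (limma adjusted p = 0.519), with a 95% interval from -0.90 to 0.05. It was -0.20 without Lym mouse 62 and -0.64 without Lym mouse 63. F13a1 made up 83.1% to 92.4% of the reads of the 10 members, so a sum over the set is a sum of F13a1. Gene models on the opposite strand overlap it, so its reads carry an uncertainty of the same kind.

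Of the inhibitors, thrombomodulin was even and tissue factor pathway inhibitor was not. Thbd, which turns thrombin toward protein C (chromosome 2, 148404466 to 148408188), had 657, 909 and 853 normalized counts in Lym, against 963, 729 and 890 in Lin-. The groups overlapped in part, with mouse 62 below every Lin- value and mouse 56 above every Lym value, and with a log2 difference of -0.10 ± 0.18 (limma adjusted p = 0.862, 95% interval -0.51 to 0.31). Protein C itself (Proc) reached at most 3.36 and its receptor Procr at most 6.67.

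Tfpi, which blocks factor X and the complex of tissue factor and factor VII (chromosome 2, 84432855 to 84476775), had 957, 677 and 204 normalized counts in Lym, against 913, 947 and 117 in Lin-. One mouse of each group, 87 and 91, stood well below the other 4. The spread within a group therefore exceeded any difference between groups, with a log2 difference of 0.13 ± 0.84 (limma adjusted p = 0.968, 95% interval -1.78 to 2.04). Mice 87 and 91 were also the 2 libraries at the far end of the first principal component of the 500 most variable genes, with scores of 26.4 and 36.4. The labels name no batch that these 2 mice share.

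In the fibrinolytic arm, the protease varied more than its receptor. Plau, or urokinase (chromosome 14, 20836660 to 20843385), had 20.2, 25.7 and 119 normalized counts in Lym, against 100.6, 95.9 and 93.9 in Lin-. Mice 62 and 63 lay well below all Lin- values and mouse 87 above them, so the groups overlapped. The log2 difference was -1.23 ± 0.61 (limma adjusted p = 0.519). Without Lym mouse 87 it was -1.99 and became a limma call (adjusted p = 0.0170), in a fit that called 4.09% of all genes as lower in Lym. Only 18 and 23 reads stand behind the values of mice 62 and 63.

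Plaur, the urokinase receptor (chromosome 7, 24462484 to 24475968), had 218, 293 and 306 normalized counts in Lym, against 299, 370 and 326 in Lin-. Its groups overlapped, with a log2 difference of -0.29 ± 0.21 (limma adjusted p = 0.631, 95% interval -0.77 to 0.19). Per kilobase, Plaur exceeded Plau 9.75-fold and 10.3-fold in Lym mice 62 and 63. The ratio was 2.32-fold in Lym mouse 87 and 2.69-fold, 3.49-fold and 3.14-fold in Lin- mice 56, 57 and 91. By this ratio the Lym library of mouse 87 lay close to the Lin- libraries.

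**Figure D4:**
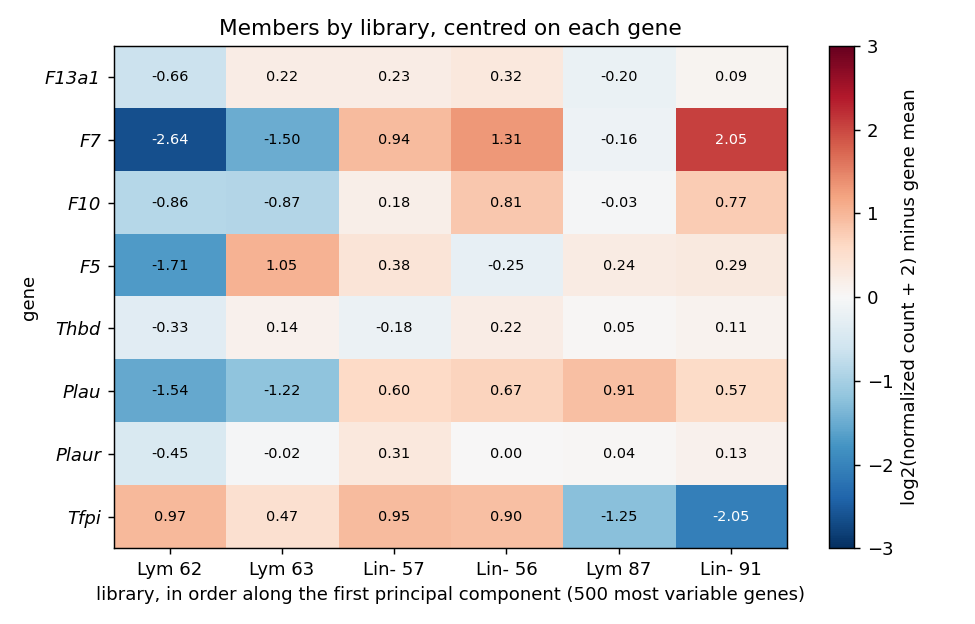
Values of log2(normalized count + 2) minus the mean of each gene for the 8 tested members, with libraries ordered along the first principal component of the 500 most variable genes. F7 runs from -2.64 in Lym mouse 62 to 2.05 in Lin- mouse 91, and Tfpi is lowest in Lym mouse 87 (-1.25) and Lin- mouse 91 (-2.05).

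Another 47 genes of the pathway, chosen by function, show which parts of the system these cells transcribed. Of these 22 passed the filter, 11 with a difference above 0 and 11 below it, and limma called none at an adjusted p of 0.05, against 0% of all genes. F8, Lrp1, Serpinb6a, Vkorc1, Furin and Ano6 are among the pathway genes that overlap other annotated genes. Their reads are uncertain in the same way as those of F5 and F13a1. The 3 fibrinogen chains (Fga, Fgb and Fgg), prothrombin (F2), F9, F11, F12, F13b, prekallikrein (Klkb1) and kininogen (Kng1) all failed the filter and reached at most 4.48 in any library. Plasminogen (Plg) had no read, and the other plasminogen activator Plat, the inhibitor Serpinb2 and alpha-2-macroglobulin (A2m) reached at most 1.12.

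The cofactor F8 and the gene Vwf, both known mainly from endothelium, were low. F8 had 59.4, 95.1 and 35.3 normalized counts in Lym, against 15.0, 61.6 and 23.7 in Lin-, and Vwf was at 0.882 to 22.4 over all 6 libraries. Both overlapped between the groups. F2rl1 and F2rl3, which are relatives of F2r, were at up to 27.6 and 38.1, and F2rl2 at up to 8.95. Among inhibitors, Serpine2 was at 57.2, 55.9 and 8.58 in Lym and 27.3, 19.4 and 1.03 in Lin-, with mouse 87 and mouse 91 again the lowest of their groups.

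Of the genes that bind phospholipid, bring plasminogen to the cell surface or clear protease complexes, Anxa5 and Lrp1 had all Lin- values above all Lym values. Annexin A5 (Anxa5), which covers exposed phosphatidylserine, was at 870, 1062 and 1371 in Lym and 2117, 1396 and 1916 in Lin-, with a log2 difference of -0.72 ± 0.21 (limma adjusted p = 0.421). Mouse 87 lay just under the lowest Lin- value. Lrp1, an endocytic receptor that clears complexes of urokinase and of Tfpi, had a log2 difference of -1.29 ± 0.24 (limma adjusted p = 0.406). It was called by DESeq2 here (adjusted p = 3.73e-05) and in the authors' deposited table. The plasminogen receptor subunits Anxa2 (2889 to 6219) and S100a10 (781 to 1533) and the receptor Plgrkt (534 to 680) overlapped between groups. Serpinb6a was at 328 ± 75.6 in Lym and 215 ± 39.8 in Lin- (SD, n = 3 each) with groups apart, at a limma adjusted p = 0.483. Over the 22 genes 4 had groups apart, or 18.2%, near the 15.6% of all genes.

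All 9 genes for the processing of clotting factors and the exposure of phospholipid were tested. The vitamin K cycle genes, which serve the carboxylation of F7 and F10, were present, with Ggcx at 26.9 to 57.2, Vkorc1 at 57.2 to 128 and Vkorc1l1 at 798 to 1183. Lman1 and Mcfd2, which form the transport receptor for factors V and VIII, were at 3648 to 5551 and 1149 to 1566. Furin was at 3915, 3916 and 2581 in Lym and 2577, 2644 and 2720 in Lin-, and the scramblase gene Ano6 at 3141, 3411 and 1941 against 2258, 2100 and 2225. In both, mice 62 and 63 stood above the rest while mouse 87 did not. Furin and Ano6 became limma calls without mouse 87, as did Lrp1 and Anxa5, which made 4 of the 22 in a fit that called 9.57% of all genes. P4hb, a disulfide isomerase, was at 21511 to 21941 in Lym and 24173 to 30733 in Lin-, with a limma adjusted p = 0.487.

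Markers of other cells that carry these genes were read in the same libraries. In bulk RNA, fewer cells of a type and less RNA per cell cannot be told apart. The monocyte and macrophage list, 11 of 12 genes tested, summed to 756 to 980 CPM (reads of the list over all reads of the library, scaled alike in all) in Lym and 1044 to 1219 in Lin-. The sum was higher in Lin-, as F7 and F10 were, but its genes did not move as one. Ly6c2 (961, 2608 and 3356 in Lym, against 4430, 4942 and 4820 in Lin-), Lyz2 and Cd14 had every Lin- value above every Lym value. Csf1r, Adgre1, Ccr2, Cd68 and Ms4a6c overlapped, and Ms4a6c had its highest values in Lym mice 62 and 63. The part of this list in the difference of F7 and F10 was not tested. None of its genes was at 0 in all libraries, but Fcgr1 was at 0 in 4 of the 6 and at most 8.95. The mast cell and basophil list, 3 of 8 genes tested, summed to 27.7 to 772 in Lym and 11.3 to 19.9 in Lin-, with most of it from Cpa3 in mouse 62 at 15971 normalized counts and with Fcer1a and Cma1 at 0. The part of that list in any member's value was not tested.

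Hepatocyte markers were at or near 0, with 4 of 8 genes read and a sum of 0.160 to 0.984 CPM in Lym and 0.178 to 0.574 in Lin-. Alb, Apoa1, Ttr and Serpina1a had no read. Of the 11 megakaryocyte and platelet markers 7 had a read, and Gp1bb, Ppbp and Treml1 were among those without one. Their sum was 2.77 to 27.8 in Lym and 1.00 to 2.36 in Lin-, mostly from Itga2b, and it was highest in mouse 62, which had the lowest F13a1 and F5. The 8 endothelial markers summed to 1.69 to 5.93 and 0.200 to 0.491, mostly from Plvap except in Lym mouse 87. Late neutrophil markers (2 of 10 tested, Ly6g at 0) summed to 6.42 to 19.3 and 3.75 to 13.4, and erythroid markers (0 of 9 tested, the 4 globin genes at 0) to 0.234 to 0.587 and 0.0446 to 0.884. Early B markers, which bear on the Lym label, summed to 4.26 to 36.5 in Lym and 2.83 to 21.0 in Lin-, 1 of 10 genes tested, with Vpreb3 at 0 and Pax5 at most 0.953. The sums of the 2 groups overlapped, and in Lin- and in Lym mouse 87 most of the sum came from Cd79b, at 254.6, 28.0 and 244 normalized counts in Lym, against 414, 45.8 and 284 in Lin-. Another 3 genes of the list, all below the filter, had every Lym value above every Lin- value. Dntt, the DNA polymerase that adds bases at antigen receptor joints, had 216, 29.1 and 4.76 in Lym and no read in Lin-. Rag1, of the recombinase that cuts those genes, had 104, 2.24 and 1.91 in Lym and no read in Lin-, with mice 63 and 87 under the floor. The B lineage factor Ebf1 had 59.4, 6.71 and 14.3 in Lym, against 0, 1.76 and 0 in Lin-. All 3 were highest in mouse 62. The progenitor list with Kit summed to 1393 to 2579 in Lym and 1317 to 1360 in Lin-, all 4 genes tested. Kit had 18902, 12027 and 3158 normalized counts in Lym, against 4953, 6066 and 3420 in Lin-, so it was highest in mice 62 and 63, where F7 was lowest. The list did not move as one. Cd34 (6207, 6605 and 7099 in Lym, against 4025, 4626 and 6152 in Lin-) had every Lym value above every Lin- value. So had Flt3 (19525, 22805 and 11811 in Lym, against 11129, 9840 and 11410 in Lin-). Cd34 was highest in mouse 87, where Kit was lowest, and Ptprc overlapped between the groups. The part of this list in the difference of F7 and F10 was not tested.

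The genes whose pattern over the 6 libraries was most like that of F7 and of F13a1 were found among 9188 other named genes with a mean of at least 100 normalized counts. Likeness was the root mean square difference of mean-centred log2 values, where a smaller value means a closer pattern. For F7 the 5 closest were Sqor (0.41), Gpx3 (0.46), Clec5a (0.51), Sh3bp5 (0.53) and Slpi (0.59). Gpx3, an extracellular glutathione peroxidase, had 33.6, 60.4 and 205 normalized counts in Lym, against 302, 570.3 and 534 in Lin-. Slpi, a secreted protease inhibitor, was at 324, 817 and 3560 against 3798, 2851 and 4467, so that mouse 87 lay inside its Lin- range. Of the members Plau (0.93) and F10 (1.01) were closest to F7, but only at ranks 47 and 60 when set among these genes.

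For F13a1 the 5 closest were Mfsd11 (0.06), Thtpa (0.07), Kyat3 (0.09), Ubl3 (0.10) and Zfp850 (0.10). A small spread makes a small difference easy to reach, so these values cannot be set against those of F7. Ubl3, a ubiquitin-like protein, was at 1226, 2315 and 1856 in Lym and 2487, 2079 and 2324 in Lin-. Of the members, Plaur (0.21, rank 176) and Thbd (0.24, rank 420) were closest to F13a1 and F7 (1.43) was farthest.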

How the data were processed

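RNA was measured by total RNA sequencing in 6 libraries, 1 per mouse, 3 Lym and 3 Lin-. Per the labels' protocols, a stranded kit and 12 PCR cycles were used, with an input of 2 ng RNA, except Lym mouse 62 with 1 ng. Per the submitters' processing notes the tools of the authors were STAR 2.6.1d and featureCounts 1.6.4, with Trim Galore 0.6.4, bcl2fastq and DESeq2, and the build was GRCm38.p6. The counting strand and the annotation release are not given in the sources used here.

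What the authors deposited for each library is a normalized signal, in which every gene's read count was divided by that library's size factor. The deposited base mean averages this signal. Of the 125865 values above 0 and up to 10000, 100.0% were whole multiples of the step of their library (tolerance 0.01), so whole reads were recovered. Per the file headers, further columns give a log2 fold change with standard error, a test score, and a raw and an adjusted p-value, all from the authors. Its positive values stand for genes higher in Lin-.

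Differences, Lym minus Lin-, came from limma 3.58.1 (R 4.3.3) with the trend option on log2(normalized count + 2), over the 14273 genes that reached 10 normalized counts in 3 or more libraries, with Benjamini-Hochberg adjustment and a threshold of 0.05. This log scale understates the change of low genes. edgeR 4.0.16, DESeq2 1.42.0 and limma-voom on the recovered reads, other filters, pseudocounts and scaling, and leaving out each mouse were alternatives. The limma, edgeR, DESeq2 and voom fits were tested on simulated data. On the reads recovered from the deposited values, and not on the simulated data, edgeR called 0 genes and DESeq2 226. The members, lists and tests were chosen with earlier results of these data known. Named genes were the 10 members, the pathway genes and the 5 genes most like F13a1 and F7. The 5 most like Tfpi, and the neighbours of F7 and F10 on chromosome 8, were added after their values were seen. Single values of some listed genes are not reported here. Levels between genes were compared per kilobase of the deposited exon length. Positions are from GENCODE M21, where 54349 identifiers had the same version and place. Tables and plots were made in Python 3.11.15 (pandas 2.3.3, matplotlib 3.10.9). Without molecular identifiers, floors reflect counting error only.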

Additional observations from a re-analysis of the deposited data

How the results depend on the processing

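No paired analysis was possible because the mice of the 2 groups share no replicate number. F13a1, F7, F10, Plau and Plaur kept their direction under all 14 alternatives, with log2 differences of -0.64 to -0.20, -3.50 to -2.26, -1.45 to -1.03, -1.99 to -0.77 and -0.38 to -0.14. The direction of the other tested members did not hold. F5 turned to 0.085 with edgeR and 0.082 with DESeq2, and leaving out each mouse gave -0.88 to 0.50, the highest without Lym 62. For Thbd that range was -0.21 to 0.042, above 0 when Lym 62 was left out. Tfpi turned to -0.11 with edgeR and with DESeq2. Leaving out each mouse gave Tfpi values of -0.86 to 0.78, and it was below 0 without Lin- 91 (-0.86), Lym 62 (-0.33) or Lym 63 (-0.077). The number of calls over all genes, 0 in the limma fit reported, was 226 with DESeq2, a different test with its own set of genes. In limma it was 5 without a filter, 1 with a pseudocount of 10, and 0 to 1366 when each mouse was left out, the highest without Lym mouse 87. Members called, not counting F7, came to 1 with DESeq2 and to 0 to 2 when each mouse was left out. Pathway genes called came to 1 lower in Lym with DESeq2, and to 0 to 2 in each direction when each mouse was left out. Of the pathway genes tested, 7 were above 0 at a filter of 50 against 11, where fewer genes were tested. The cause of the other changes was not tested. F3 and F2r lay under the floor, so a difference in them was not detectable at this depth.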

Other observations

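The genes whose pattern over the 6 libraries was most like that of Tfpi were looked up after its values were seen, with no test. They were Nefh (0.44), Fgl2 (0.53), Zfp870 (0.56), Hdc (0.60) and Zfp709 (0.64), each with its root mean square difference of centred log2 values, and in each of them Lym mouse 87 and Lin- mouse 91 were the 2 lowest libraries. Fgl2, a fibrinogen-like protein known for prothrombinase activity, had 1322, 566 and 232 normalized counts in Lym, against 516, 860 and 206 in Lin-. Hdc, histidine decarboxylase, was at 1345, 498 and 343 against 488, 583 and 100.05. Nefh, a neurofilament subunit, was at 336, 219 and 44.8 against 334, 151 and 41.3. The closeness of these 5 genes to Tfpi was looked for and found in the same libraries, so it is a description of them.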
